A study of Mus musculus with 23 samples.

Results

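The nuclear genes for the core factors of mitochondrial DNA (mtDNA) replication and transcription were followed in mouse embryonic stem cells (ESCs): Tfam, Tfb1m, Tfb2m, Polrmt, Polg, Polg2, Ssbp1 and Top1mt. They were found by symbol, and all 8 had 1 row each among the 37310 gene rows of the RNA-seq files. Binding was read at their promoters, taken from 2 kb upstream to 500 bases downstream of the annotated gene start, in the Zbtb11 peak lists and in the coverage table of 7500 high-confidence Zbtb11 peaks.

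RNA-seq was from E14-derived ESCs in 3 groups of 3 libraries, all collected after 48 h of treatment. Zbtb11 KO cells were Zbtb11lox/lox with ERt2-Cre in the Rosa26 locus and received 250 nM 4-hydroxytamoxifen (4OHT), which activates the recombinase and deletes Zbtb11 exon 3. The EtOH control was the same line given the carrier ethanol, and the 4OHT control was Zbtb11WT/WT Rosa26WT cells given 4OHT, so it differed from the EtOH control in both genotype and agent. ChIP-seq was from untreated E14 cells: 4 libraries with an antibody against Zbtb11 in Zbtb11WT/WT cells, 3 with anti-FLAG in Zbtb11FLAG/FLAG cells, and a FLAG control list called from 2 libraries of Zbtb11WT/WT cells, which lack the tag.

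mtDNA is copied and transcribed by proteins that are encoded in the nucleus and imported. Tfam coats mtDNA and bends its promoters, where Polrmt, the mitochondrial RNA polymerase, starts transcription with Tfb2m. The same polymerase makes the primers for Polg, the catalytic subunit of the replicative DNA polymerase, which works with its accessory subunit Polg2 and with Ssbp1, the protein that covers single-stranded mtDNA. Tfb1m methylates the RNA of the small mitochondrial ribosomal subunit, and Top1mt relaxes supercoils in mtDNA. Many genes of this kind are known targets of GABP and of NRF-1, transcription factors of housekeeping promoters.

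Counts on genes ranged from 14301457 to 23876604 per library. The mitochondrial genome gave 7.0 to 10.5% of them. All 8 ESC markers examined were high (211.5 to 1108 CPM, counts scaled to the library total), while markers of fibroblasts, primitive endoderm and early lineages lay between 0 and 17.2 CPM. Replicate 1 stood apart in all 3 groups, and the study's final gene list left it out. Deletion of Zbtb11 could not be checked in these files, since no row carried its name (0 rows). In bulk RNA, fewer expressing cells and less RNA per cell cannot be told apart.

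Zbtb11 peaks lay at 6 of the 8 promoters. Tfam, Tfb2m, Polrmt, Polg, Polg2 and Ssbp1 each had 1 peak in the Zbtb11 list, 1 in the FLAG-Zbtb11 list, 1 high-confidence peak and none in the FLAG control list. Tfb1m and Top1mt had none in any list. For comparison, 29.1% of the 13351 protein-coding genes tested by RNA-seq had a high-confidence promoter peak. The study calls a peak Zbtb11-high when its mean coverage lies over 1.5 interquartile ranges above the upper quartile. This limit was 308.9, and Ssbp1 and Tfam lay above it. Of the protein-coding genes tested, 5.93% had a Zbtb11-high promoter peak.

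The sequence at the middle of the Tfam peak is shown, on the strand of the gene, as an example of a Zbtb11-high promoter, together with the promoters of the 2 members without a peak. The capitals mark CCGGAAG, the core of the site that GABP is known to bind. The Tfam bases are mm9 chr10:70700598-70700897 (minus strand). The Tfb1m window is chr17:3557664-3557963 and the Top1mt window chr15:75509181-75509480, both on the minus strand and running from 250 bases before the gene start to 50 after it.
Tfam peak centre: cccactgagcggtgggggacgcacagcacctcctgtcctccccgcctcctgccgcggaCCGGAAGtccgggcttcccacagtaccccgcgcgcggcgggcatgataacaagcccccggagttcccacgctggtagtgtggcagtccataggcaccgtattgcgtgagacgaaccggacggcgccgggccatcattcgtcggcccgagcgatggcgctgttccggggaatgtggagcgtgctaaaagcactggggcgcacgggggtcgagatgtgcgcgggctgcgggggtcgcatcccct
Tfb1m promoter: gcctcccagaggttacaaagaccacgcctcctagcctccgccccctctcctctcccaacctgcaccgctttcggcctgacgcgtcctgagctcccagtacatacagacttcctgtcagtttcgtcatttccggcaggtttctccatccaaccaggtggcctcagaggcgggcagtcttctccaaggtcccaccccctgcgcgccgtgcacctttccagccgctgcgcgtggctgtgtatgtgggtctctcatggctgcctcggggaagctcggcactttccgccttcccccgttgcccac
Top1mt promoter: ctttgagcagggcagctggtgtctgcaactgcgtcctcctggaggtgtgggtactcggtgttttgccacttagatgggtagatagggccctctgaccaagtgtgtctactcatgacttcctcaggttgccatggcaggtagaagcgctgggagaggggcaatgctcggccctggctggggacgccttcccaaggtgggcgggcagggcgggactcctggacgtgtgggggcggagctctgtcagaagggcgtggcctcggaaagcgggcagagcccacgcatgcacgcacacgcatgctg

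With the first base of the gene counted as 0, the core lay at 189 to 195 in Tfam, on the strand of the gene and in the non-coding part of an exon. The same letters occurred in the central 300 bases of the Polg peak (51 to 57) and, as the reverse complement CTTCCGG, of the Polg2 peak (-29 to -23). The core was in the central 300 bases of 29.4% of all 7500 peaks and of 47.7% of the 857 Zbtb11-high peaks. The core of NRF-1 sites, GCGCANGC or its reverse complement GCNTGCGC, lay at 4 to 11 in the centre of the Tfb2m peak. It was in 9.56% of all peak centres. The Polrmt peak centre, which begins 68 bases into the gene, held neither. The window from 250 bases before to 50 after the Polrmt start held 1 GABP core (-43 to -37) and 3 NRF-1 cores, of which a pair near the start share letters. The Tfb1m and Top1mt windows held neither, and the same windows of Tfam and Polg, which had peaks, also held neither. Of all promoter windows of this length, 16.2% held the GABP core and 18.8% the NRF-1 core. These are matches of letters and were not tested as binding sites.

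Base composition varied among the promoters. The Tfb1m and Top1mt windows were 63.3% G and C each, and those of Polg, Polrmt, Polg2, Tfam and Tfb2m ran from 48.7% (Polg) to 66.3% (Tfb2m), with 54.0% at Tfam. The median over 13351 promoter windows was 60.0%. The ratio of observed to expected CpG was 0.324 at Tfam, 0.679 at Tfb1m and 0.517 at Top1mt, with a median of 0.736. Windows were set at the outermost annotated start, and Tfam has 4 annotated starts while Tfb1m and Top1mt have 1 each. The Tfam peak centre lay inside the gene, 280 bases after the annotated start, and had 69.0% G and C and a CpG ratio of 0.981.

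Ssbp1 (ENSMUSG00000029911.8) carried the strongest Zbtb11 peak of the group, in a region spanning the gene start. Its normalised read coverage was 472.4, 654.0, 438.4 and 725.6 in the 4 Zbtb11 libraries, a mean of 572.6 ± 139.2 (SD, n = 4), and 617.4, 599.5 and 347.0 in the FLAG-Zbtb11 libraries (521.3 ± 151.2, n = 3). It ranked 380 of 7500 peaks by the Zbtb11 mean and between 307 and 415 in single libraries. Its place in the order thus varied little although its coverage varied between libraries.

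At Tfam (ENSMUSG00000003923.8, chr10:70688212-70701028, minus strand), the peak was at chr10:70700148-70701348. Coverage was 341.2, 363.9, 328.2 and 353.0 in the Zbtb11 libraries (346.6 ± 15.4, n = 4) and 351.4, 350.9 and 275.6 in the FLAG-Zbtb11 libraries (326.0 ± 43.7, n = 3). The rank was 744, and all 4 Zbtb11 libraries were close to each other. The lowest Ssbp1 library with the Zbtb11 antibody (438.4) was above the highest Tfam library (363.9), so these 2 peaks did not overlap in that ChIP.

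Polrmt followed with 212.3, 238.9, 237.9 and 326.4 in the Zbtb11 libraries (253.9 ± 49.9, n = 4) at chr10:79208509-79209709. Its rank was 1065, below the Zbtb11-high limit, and it was above the corresponding limit when the 3 FLAG-Zbtb11 libraries were used (274.8 ± 35.0, n = 3). The other 3 peaks were weaker. Polg had a mean of 137.3 ± 12.4 (rank 2033, chr7:86610597-86611797). Tfb2m had 124.7 ± 5.74 with the Zbtb11 antibody and 165.5 ± 7.34 with anti-FLAG, where its 3 libraries (157.9 to 172.6) were above all 4 of the former (120.0 to 133.0). Its peak (chr1:181475857-181477057, rank 2196) also covers the start of Cnst, which lies 103 bases away on the other strand, so the peak cannot be given to 1 of the 2 genes. Polg2 was the weakest at 87.2 ± 17.6 (rank 3117, chr11:106640161-106641361), still above the median of all peaks, 71.3.

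**Figure D1:**
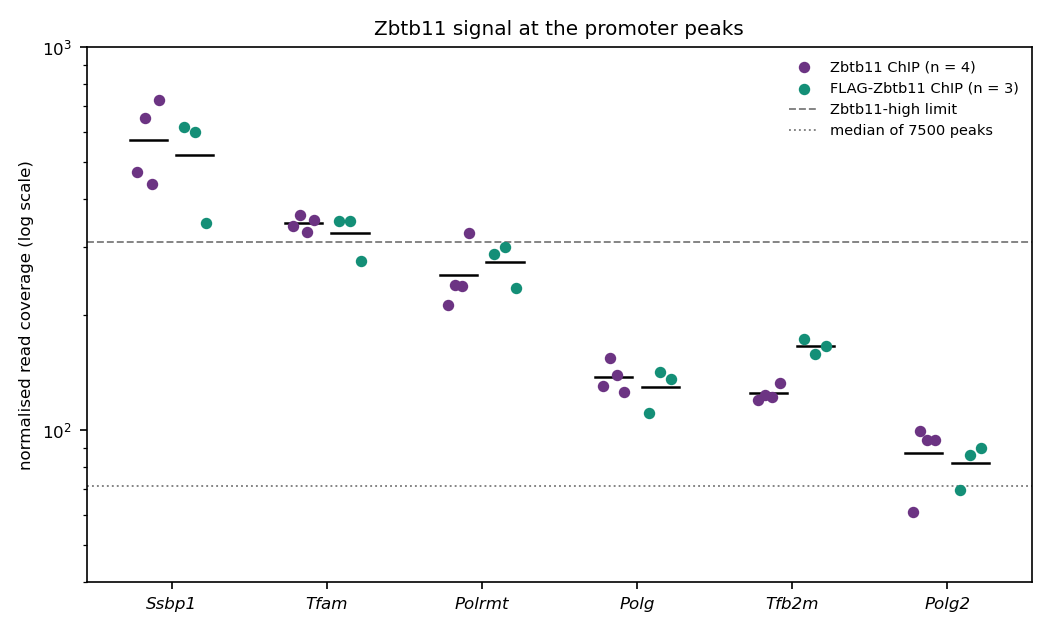
Normalised read coverage (vertical axis, log scale) at the 6 member promoters with a high-confidence peak, for the Zbtb11 ChIP (4 libraries) and the FLAG-Zbtb11 ChIP (3 libraries). Points are libraries and bars are means. The Ssbp1 libraries (347.0 to 725.6) lie above the Zbtb11-high limit of 308.9, and those of Polg2 (61.1 to 99.4) lie around the median of 71.3.

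All 8 genes were expressed in each of the 9 libraries. Per kb of exon, the EtOH control means fell in the order Tfb1m (19.2 ± 2.20 CPM per kb, SD, n = 3), Tfam (17.7 ± 1.70), Polg (16.7 ± 2.05), Ssbp1 (14.9 ± 2.94), Polrmt (12.2 ± 0.316), Top1mt (7.07 ± 0.882), Tfb2m (3.56 ± 0.312) and Polg2 (2.598 ± 0.487). Neighbours in this order from Tfb1m to Polrmt overlapped between libraries, whereas Top1mt, Tfb2m and Polg2 did not overlap their neighbours. The level of Tfb2m is uncertain: 98.3% of its transcript matches Gm1818 on chromosome 12 at 95% identity or more, and reads that align in several places may be lost. Gm1818 itself had 1 to 7 counts per library.

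**Figure D2:**
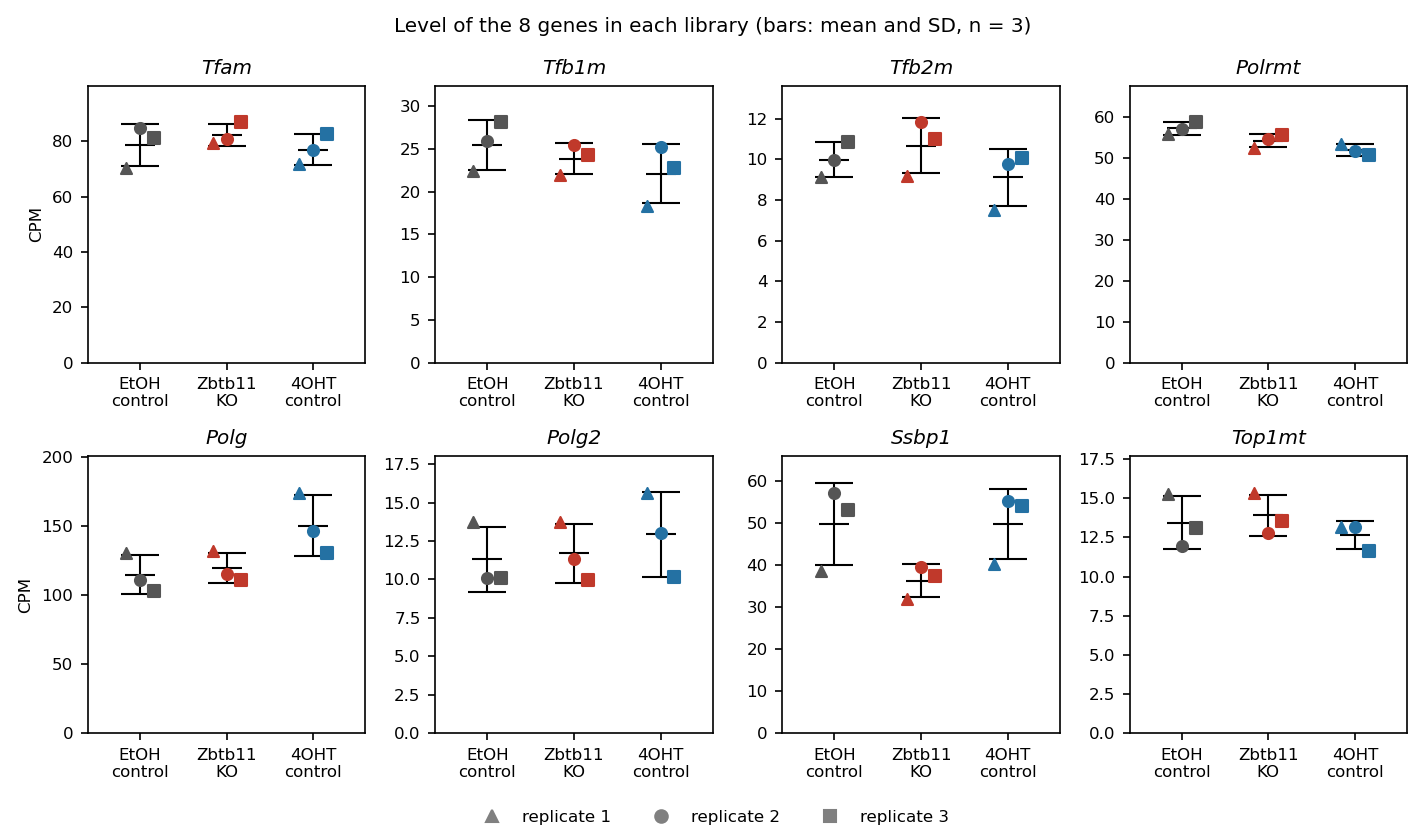
CPM (vertical axes from 0) of the 8 genes in each of the 9 RNA-seq libraries, by group. Symbols mark the replicate number, long bars the mean and capped bars the SD (n = 3). In Zbtb11 KO, Ssbp1 lay between 31.9 and 39.5 CPM, and Polg in the 4OHT control lay between 130.1 and 174 CPM.

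The comparison of Zbtb11 KO with the EtOH control was made within the same line. The groups differed in the agent given and in activation of the recombinase as well as in deletion of Zbtb11. These cannot be told apart in this comparison alone. Ssbp1 was lower in the KO, at 0.731 times the control level, and the other 7 members stayed within a log2 difference of 0.1 of the control. Without account of the replicate numbers, none of the 8 passed (0 of 8, edgeR quasi-likelihood test with Benjamini-Hochberg adjustment over 14346 genes), and 0.899% of all genes did. DESeq2 also called 0 of 8, against 1.25% of all genes. An unadjusted p under 0.05 was found for 1 of 8 in both, against 2.8% of all genes by edgeR and 2.68% by DESeq2. With the replicate number as a block, Ssbp1 passed (1 of 8, 2.25% of all genes), as it did in replicates 2 and 3 alone (1 of 8, 1.5% of 14172 genes, and 2.27% with the block).

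Ssbp1 had 38.6, 57.2 and 53.0 CPM in EtOH control replicates 1 to 3, 31.9, 39.5 and 37.3 CPM in Zbtb11 KO, and 40.2, 55.1 and 53.8 CPM in the 4OHT control. Within each replicate number the KO library was the lowest, and EtOH control replicate 1 fell among the KO values, so those 2 groups overlapped. The log2 fold change was -0.45 (SE 0.17, 95% interval -0.84 to -0.06, edgeR adjusted p = 1). Blocking on the replicate number left the fold change at -0.45 with an SE of 0.064 and an adjusted p of 8.31e-05. Without replicate 1 it was -0.52 (adjusted p = 0.00247), while without replicate 2 or 3 Ssbp1 was not called. The same-number differences were -0.27, -0.53 and -0.51 on the log2 scale.

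Against the 4OHT control, which shares the KO libraries, Ssbp1 differed by -0.46 (SE 0.17, adjusted p = 0.181). This became 1.52e-05 with the block and 0.000828 without replicate 1. Here the groups did not overlap, a pattern found for 22.9% of all genes in this comparison. Between the controls the Ssbp1 difference was 0.0043 (95% interval -0.38 to 0.39), and its sign changed between fits. A stretch of 585 bases in the Ssbp1 transcript matches the pseudogene Gm12115 on chromosome 11 at 98.3% identity. Gm12115 had 1 to 11 counts per library against 548 to 1336 for Ssbp1.

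Tfam, the other member with a Zbtb11-high promoter, had 70.3, 84.8 and 81.0 CPM in the EtOH control and 79.4, 80.8 and 86.9 CPM in Zbtb11 KO. The groups overlapped, with EtOH control replicate 1 below all 3 KO libraries and KO replicate 3 above all 3 of the control. The log2 fold change was 0.066 (95% interval -0.15 to 0.28), and with the block the interval was -0.053 to 0.19. A fall of the size seen for Ssbp1 lies outside both intervals. Among all genes with a Zbtb11-high promoter peak, 101 of 792 (12.8%) were called lower in Zbtb11 KO, against 6 of 3089 (0.194%) with another high-confidence promoter peak and 13 of 9470 (0.137%) with none. With the block the share of the first group was 24.4%. Most genes of this class were thus not called, like Tfam.

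Transcription factors and the polymerase came next. Polrmt had 55.8, 57.1 and 58.8 CPM in the EtOH control and 52.5, 54.5 and 55.6 CPM in Zbtb11 KO, where all 3 libraries were below all 3 of the control. Such separation was found for 7.21% of all genes in this comparison, and the size was small: a log2 fold change of -0.078 (SE 0.068, 95% interval -0.23 to 0.076), which the block did not turn into a call (adjusted p = 0.715). Tfb1m had 22.4 to 28.1 CPM in the EtOH control and 21.9 to 25.4 CPM in the KO, a log2 fold change of -0.095 (95% interval -0.41 to 0.22). Tfb2m had 9.12 to 10.9 and 9.20 to 11.8 CPM, a log2 fold change of 0.096 (95% interval -0.26 to 0.45). Both overlapped between the groups. Cnst, which shares the Tfb2m promoter, had a log2 fold change of -0.033 (adjusted p = 1).

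The remaining replication genes also overlapped between Zbtb11 KO and the EtOH control. Polg had 103.1 to 130.2 CPM in the control and 111.0 to 131.8 in the KO (log2 fold change 0.058, 95% interval -0.24 to 0.35). Polg2 had 10.1 to 13.8 and 9.98 to 13.7 CPM (0.047, -0.41 to 0.50). Top1mt had 11.98 to 15.3 and 12.8 to 15.4 CPM (0.049, -0.24 to 0.34). A log2 fold change of -0.45, that of Ssbp1, lies outside these 3 intervals, and closest to that of Polg2.

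**Figure D3:**
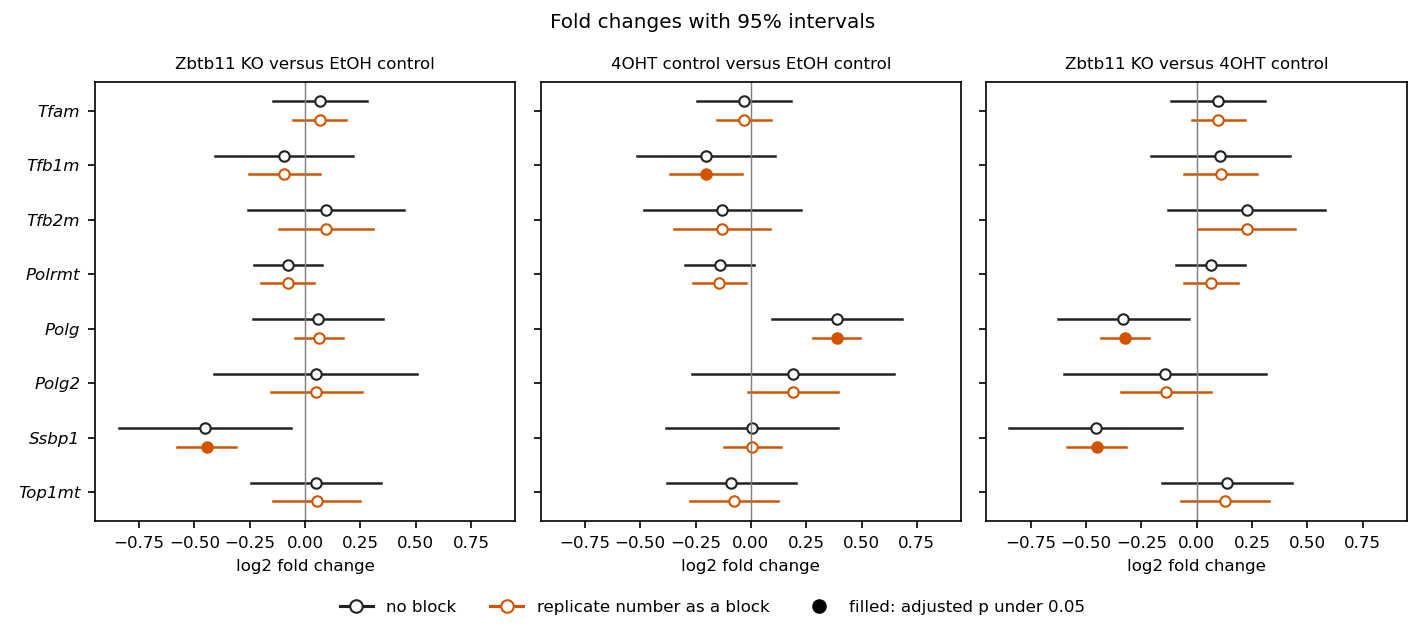
Log2 fold change (horizontal axis) of the 8 genes in the 3 comparisons, each with its 95% interval, fitted without a block (black) and with the replicate number as a block (orange). Filled points have an adjusted p under 0.05. With the block, Ssbp1 is filled at -0.45 in both comparisons with Zbtb11 KO, and Polg at 0.39 and -0.33 in both with the 4OHT control.

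The comparison of the 2 controls gives the background of the cell line and of 4OHT, which cannot be told apart here. None of the 8 members passed without the block (0 of 8 by edgeR, against 4.06% of all genes, and 0 of 8 by DESeq2, against 8.27%). An unadjusted p under 0.05 was found for 1 of 8 by edgeR and 2 of 8 by DESeq2, against 18.0% and 18.4% of all genes. With the block 2 of 8 passed, against 33.6% of all genes. In replicates 2 and 3 alone it was 1 of 8 against 17.1%, and 2 of 8 against 27.6% with the block.

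Polg was higher in the 4OHT control. It had 130.2, 110.5 and 103.1 CPM in EtOH control replicates 1 to 3 and 174, 146.4 and 130.1 CPM in the 4OHT control, higher in 3 of 3 replicate numbers with overlap of the groups between numbers. The log2 fold change was 0.39 (SE 0.13, adjusted p = 0.148), and with the block it was 0.39 (SE 0.052, adjusted p = 9.25e-06). Against the 4OHT control, Polg in Zbtb11 KO was lower (-0.33, SE 0.13, adjusted p = 0.199, and 5.32e-05 with the block). The KO and EtOH libraries, which come from the same line, differed by 0.058.

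Tfb1m was the other member called between the controls, at -0.20 (adjusted p = 0.0496 with the block, 0.516 without). It was not called in replicates 2 and 3 (adjusted p = 0.258, and 0.169 with the block). Polrmt had 53.5, 51.6 and 50.7 CPM in the 4OHT control, all below the EtOH control, a separation found for 21.7% of all genes. Its log2 fold change was -0.14 (adjusted p = 0.329, and 0.0592 with the block), and in replicates 2 and 3 with the block it was called at -0.18 (adjusted p = 0.049). In Zbtb11 KO against the 4OHT control, 0 of 8 members passed without the block by edgeR or DESeq2, against 6.45% and 10.2% of all genes. An unadjusted p under 0.05 was found for 2 of 8 in both, against 19.2% and 19.6% of all genes. With the block Ssbp1 and Polg passed (2 of 8, 34.9% of all genes), and both also did in replicates 2 and 3 alone (18.7% of all genes, and 29.5% with the block).

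Replicate 1 moved the members themselves. In the EtOH control its Ssbp1 level was -0.51 on the log2 scale relative to replicates 2 and 3, that of Tfb1m -0.27 and that of Tfam -0.24, while Polg2 was at 0.45, Polg at 0.29 and Top1mt at 0.29. The Zbtb11 KO group showed -0.27 for Ssbp1 and 0.37 for Polg2, and the 4OHT control -0.44 and 0.45. The shift thus had the same sign in all 3 groups for 7 of the 8 genes, Polrmt being the exception.

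Lists of other genes around mtDNA gave context. Of 73 genes on 6 lists, 66 had counts above the filter. In Zbtb11 KO against the EtOH control 1 of the 66 was called, against 0.899% of all genes. It was Tefm, and its direction was down. Tefm, listed under its older symbol (ENSMUSG00000046909.9, chr11:79950180-79955677, minus strand), is the elongation factor of Polrmt. It had 36.0, 38.5 and 41.6 CPM in the EtOH control, 32.9, 39.8 and 38.2 CPM in the 4OHT control and 21.2, 23.0 and 23.1 CPM in Zbtb11 KO. All KO libraries were below all control libraries. Of all genes, 7.21% did not overlap between the KO and the EtOH control, and 22.9% between the KO and the 4OHT control. The log2 fold change was -0.79 (SE 0.10, adjusted p = 0.00407, and 4.62e-08 with the block), and it was -0.72 against the 4OHT control (adjusted p = 0.00305). Without replicate 2 or without replicate 3 Tefm was not called. Its promoter peak had coverage of 752.5, 1004, 736.2 and 1339 in the Zbtb11 libraries (957.9 ± 282, n = 4) and ranked 28 of 7500, above every member of the replication and transcription group.

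Of the transcripts made from mtDNA, 7 of 13 messages had counts above the filter, and the other 6 had at most 3 counts in any library. In the EtOH control mt-Co1, which passed, had a mean of 5518 CPM and mt-Co2, which did not, 0.068 CPM. Whether reads of the 6 were lost in alignment or counting was not tested, so their expression cannot be read from these counts. The 7 had log2 fold changes from -0.24 to -0.0019 in Zbtb11 KO against the EtOH control, with 0 called by edgeR (adjusted p = 1 for each). The large-subunit rRNA, mt-Rnr2, had 53210, 50780 and 58750 CPM in the EtOH control, 43850, 60690 and 55910 in the 4OHT control, and 40440, 41030 and 36820 in Zbtb11 KO. The KO libraries were the lowest within each replicate number and below every control library. Groups did not overlap for 7.21% of all genes against the EtOH control and 22.9% against the 4OHT control. The log2 fold change was -0.46 (SE 0.12, adjusted p = 0.354), and mt-Rnr2 passed with the block (adjusted p = 0.0139) and without replicate 1 (0.0457). The small-subunit rRNA, mt-Rnr1, changed by -0.14 (95% interval -0.55 to 0.27). The libraries were depleted of rRNA before sequencing, and the part of this step in the values was not tested.

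**Figure D4:**
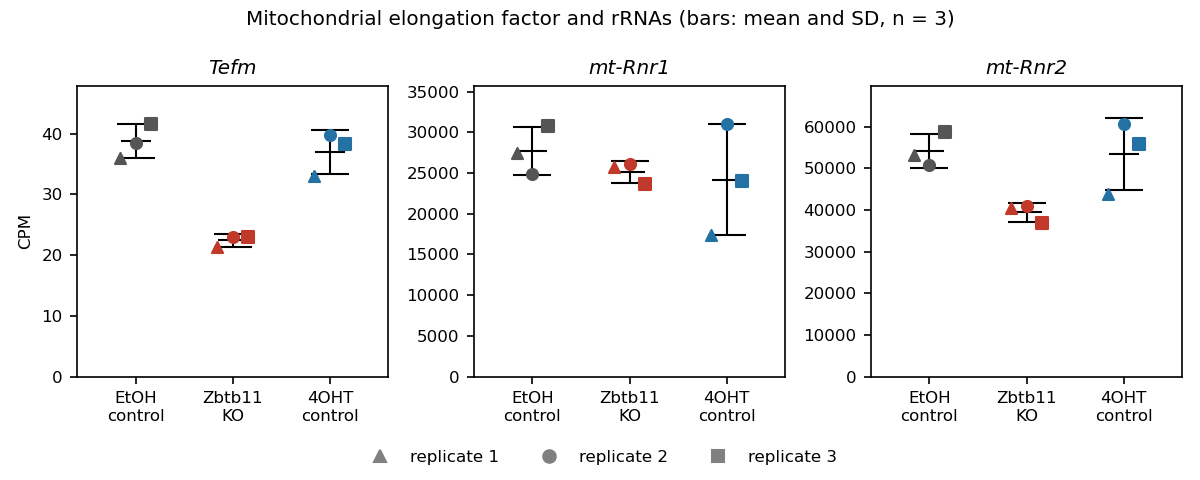
CPM (vertical axes from 0) of Tefm and of the mitochondrial rRNAs mt-Rnr1 and mt-Rnr2 in the 9 libraries, by group. Symbols mark the replicate number, long bars the mean and capped bars the SD (n = 3). The Zbtb11 KO libraries of Tefm (21.2 to 23.1) and of mt-Rnr2 (36820 to 41030) lie below all control libraries.

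The other lists held no called gene in this comparison. The 10 genes of mtDNA replication and repair had a median log2 fold change of 0.063, and that of Ccdc111, the largest, was -0.19. The 12 genes of nucleotide supply ran from -0.25 (Abat) to 0.26 (Dguok, the mitochondrial deoxyguanosine kinase, 95% interval -0.016 to 0.53). The 20 genes of RNA processing and stability had a median of -0.028, with Ddx28 at 0.21. The 8 expressed nuclear regulators ran from -0.074 (Gabpb1, a GABP subunit) to 0.10 (Gabpb2, another). The median over the 8 members was 0.048 and over all genes -0.00065.

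Of the 58 nuclear genes on these lists, 30 had a high-confidence promoter peak and 8 a Zbtb11-high one: Fen1, Dguok, Sucla2, Tefm, Mterfd2, Rg9mtd1, Gabpa and Yy1. Of these 8, only Tefm was called in Zbtb11 KO against the EtOH control, with or without the block. Ssbp1 was called with the block but not without it. Rg9mtd1 (mean coverage 722.3) had 30.86 to 42.97 CPM in Zbtb11 KO and 31.64 to 36.75 CPM in the EtOH control. Mterfd2 (654.9) had 12.11 to 16.63 and 14.08 to 17.67 CPM, so both overlapped between the groups. Dguok (mean coverage 640.7) and Sucla2 (586.0) were bound about as strongly as Ssbp1, with log2 fold changes of 0.26 and -0.028 without the block. Gabpa, the DNA-binding subunit of GABP, had 588.7 and a log2 fold change of -0.018 (95% interval -0.17 to 0.13).

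By the distance between centred log2 CPM profiles over the 9 libraries, the gene most like each member was Dnajc24 for Tfam (root mean square distance 0.024 log2 units), Zfp280b for Tfb1m (0.042), Slc25a22 for Tfb2m (0.049), Gnptab for Polrmt (0.033), Plbd2 for Polg (0.043), Ralgapa2 for Polg2 (0.044), Gm10131, annotated as a pseudogene, for Ssbp1 (0.080) and Ncaph for Top1mt (0.049). The nearest gene to Ssbp1 was the farthest of the 8. Ssbp1 also had the largest SD of the 8 profiles (0.307 log2 units) and the largest median distance to all genes (0.357). These profiles share libraries and the shift of replicate 1, and are a description.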

How the data were processed

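RNA-seq used rRNA-depleted directional libraries. Per the study's methods, the authors trimmed the reads, aligned them with STAR and counted them with HTSeq. The deposited values were raw counts per gene. The strand setting of HTSeq was not given in the sources used here, and 5 of the 8 members overlap a gene on the other strand (Tfb1m, Tfb2m, Polg, Polg2 and Top1mt). Reads without a gene (25.3 to 31.6%) stayed out of library sizes. ChIP-seq reads were aligned to mm9 by the authors with Bowtie 1.1.2, peaks were called with MACS2 in the IDR pipeline over replicates (1 list per ChIP), and the deposited coverage table holds normalised read coverage from DiffBind, used as signal. Its positions are printed as deposited, and whether its starts count from 0 or 1 was not given. Its mean columns, the input libraries and the depth of the ChIP libraries were not used here.

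Counts were tested with edgeR 4.0.16 (quasi-likelihood F test, TMM factors, all 3 groups, over 1 CPM in at least 3 libraries) in R 4.3.3, with an adjusted p under 0.05 as the call. DESeq2 1.42.0, other filters, library sizes, left-out replicates and the replicate block were alternatives. Deviations of same-numbered samples from their group means correlated at 0.416 to 0.812 and those of differently numbered samples at -0.745 to 0.517. The replicate numbers were taken to pair the samples, which rests mainly on replicate 1. For replicates 2 and 3 the order was mixed. EtOH control 2 correlated at 0.416 with 4OHT control 2 and 0.517 with 4OHT control 3, and EtOH control 3 at 0.337 and 0.672. Only the edgeR fit without the block was tested on simulated counts, which held no shift between replicates. The other fits were not tested in this way. Gene starts, exon lengths and sequence came from GENCODE vM1 and mm9, where all 37310 identifiers matched. One promoter sequence is not reported here. Copies of member transcripts were sought with blastn 2.17.0 (at least 95% identity over 100 bases). The members and gene lists were chosen with earlier results of these data known. By rule, the named genes were all 8 members, every listed gene called in Zbtb11 KO against the EtOH control and genes sharing a member's promoter. The rule also named the listed gene with the largest fold change per list and the gene nearest in profile to each member. Outside this rule, the text names listed genes at the ends of ranges and those with a Zbtb11-high promoter peak. It also names other mitochondrial transcripts and genes matching a member's transcript.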

Additional observations from a re-analysis of the deposited data

Results flagged for a closer look

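The Polg2 promoter peak had 1 Zbtb11 library far from the other 3. Replicate 1 had a coverage of 61.1, and replicates 2 to 4 had 99.4, 94.5 and 94.0. The gap to the nearest library was 0.86 of the whole range, above Dixon's 95% critical value for 4 samples. Chance flags about 1 in 20 such groups, and 6 member peaks were examined.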

How the results depend on the processing

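Both promoter counts, 6 members with a high-confidence peak and 2 with a Zbtb11-high one, stayed within 1.5 times under all 13 alternatives. The mean of the FLAG-Zbtb11 libraries made Polrmt the 3rd Zbtb11-high member. Of the coverage values, 3 moved by more than the spread between libraries: with that mean Tfam went from 346.6 to 326.0 and Tfb2m from 124.7 to 165.5, and with all 7 libraries Tfb2m was at 142.2. The RNA calls depended on how replicate 1 was treated. With the replicate block, 1 member was called in Zbtb11 KO against the EtOH control, 2 between the controls and 2 in Zbtb11 KO against the 4OHT control, and in replicates 2 and 3 with the block the counts were 1, 2 and 2. Between the controls these were Polg and Tfb1m with the block, but Polg and Polrmt in replicates 2 and 3 with it. With 1 replicate left out the counts ran from 0 to 1, 0 to 1 and 0 to 2. The other genes called in Zbtb11 KO against the EtOH control were 2 with the block, with or without replicate 1, and 0 to 2 with a replicate left out. Between the controls they were 0 in the main test, 3 by DESeq2, 1 with library sizes, 1 with the filter at 5 CPM, 14 with the block, 10 in replicates 2 and 3 with the block, and 0 to 7 with a replicate left out. For single members, the block gave called log2 fold changes of -0.45 for Ssbp1 in both KO comparisons, 0.39 and -0.33 for Polg in both 4OHT control comparisons, and -0.20 for Tfb1m between the controls. In replicates 2 and 3 with the block, Ssbp1 had -0.52 and -0.51, Polg 0.38 and -0.29, and Polrmt -0.18 between the controls (adjusted p = 0.049). With a replicate left out, Ssbp1 ran from -0.52 to -0.41 against the EtOH control and from -0.51 to -0.42 against the 4OHT control, and Polg from 0.38 to 0.41 between the controls and from -0.38 to -0.30 in the KO against the 4OHT control. Signs changed only near 0. Polg2 in Zbtb11 KO against the EtOH control ran from -0.0098 to 0.079, and between the controls Tfam ran from -0.065 to 0.027. Ssbp1 between the controls ran from -0.013 to 0.037 with a replicate left out, and was -0.00046 with no filter, -9.5e-05 with only the 2 groups and -0.012 in replicates 2 and 3 with the block. The biological coefficient of variation was 17.4% over all 3 replicates and 5.33% with the block, which sets the size of change that each fit could call.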
